A study of Mus musculus with 12 samples.

Results

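The 27 genes described here are mouse orthologs of human hereditary ataxia genes that lie, for the most part, outside the ion channel and receptor families: Atxn1, Atxn2, Atxn3, Atxn7, Atxn10, Ppp2r2b, Tbp, Kcnd3, Ttbk2, Fgf14, Afg3l2, Spg7, Atm, Aptx, Syne1, Tdp1, Ano10, Elovl4, Elovl5, Eef2, Stub1, Nop56, Coq8a, Cwf19l1, Rubcn, Tpp1 and Wwox. They were taken by gene symbol, and all 27 were found among the 54446 gene rows of the count tables. The list still holds Kcnd3, which encodes a potassium channel subunit, and Fgf14, whose product binds sodium channels. Gene-level RNA-seq counts were available for 4 groups of 3 libraries: cerebellum of Syt14 knockout mice (Syt14-/-, KO), cerebellum of wild-type mice (Syt14+/+, WT), hippocampus of KO mice and hippocampus of WT mice. By the animal numbers in the labels, the same 3 KO and 3 WT mice gave both tissues, so each library of a group comes from a separate animal. The sources used here do not give the mouse strain, age or sex, nor the part of Syt14 that was altered. The study's stated interest was in Syt14 in mood disorder and in motor coordination.

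Hereditary ataxias are inherited disorders of balance and coordination in which the cerebellum, and often its Purkinje cells, the output neurons of the cerebellar cortex, degenerate or malfunction. The causes are of several kinds: coding CAG repeats that lengthen a run of glutamines, repeats in noncoding sequence, and point or loss mutations in genes of DNA repair, mitochondria, lipid synthesis, translation and protein turnover. Many of these genes are used in most tissues, although the disease shows mainly in the cerebellum and its connections. Human SYT14, the ortholog of the gene altered in these mice, has itself been linked to a recessive ataxia; its product belongs to the synaptotagmins, a family of membrane trafficking proteins.

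Of the 5 polyglutamine members, Atxn2, Atxn3, Atxn7 and Tbp are shown with the longest run of CAG and CAA codons in their mouse reference coding sequence, because glutamine runs define this group in humans. The runs are those of the reference and were not read in these mice. Each is read on the coding strand from GENCODE M21 transcripts (GRCm38), with the run in capitals and 30 coding bases on either side in lower case. The run was 3 codons in Atxn2 (chr5:121810946-121810954, plus strand, codons 1129 to 1131 of 1286, near the end of the protein and thus not at the site of the human repeat, which lies near its start), 6 codons in Atxn3 (chr12:101926563-101926580, minus strand), 5 codons in Atxn7 (chr14:14013156-14013170, plus strand) and 13 codons in Tbp (chr17:15504391-15504429, plus strand). The lower-case bases around the Atxn3 run span an exon junction.
Atxn2: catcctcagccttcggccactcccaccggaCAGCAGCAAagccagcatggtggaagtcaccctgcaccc
Atxn3: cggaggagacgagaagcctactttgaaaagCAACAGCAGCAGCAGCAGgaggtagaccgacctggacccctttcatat
Atxn7: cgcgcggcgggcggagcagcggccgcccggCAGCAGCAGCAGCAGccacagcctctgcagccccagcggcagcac
Tbp: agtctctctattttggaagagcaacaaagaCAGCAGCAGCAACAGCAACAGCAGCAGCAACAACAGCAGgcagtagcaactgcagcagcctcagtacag
The Tbp run held 9 CAG and 4 CAA codons, the Atxn3 run 5 CAG and 1 CAA, the Atxn2 run 2 CAG and 1 CAA, and the Atxn7 run CAG codons only.

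The libraries held 24355572 to 34971359 gene-assigned counts in cerebellum and 24932098 to 30504437 in hippocampus. The least abundant member, Cwf19l1, had 319 to 563 counts per library, so every member was measured well above the limit that a count of 0 allows. The tissue labels were checked on defining genes: Gabra6, a GABA receptor subunit of cerebellar granule cells, lay at 554 to 629 CPM (counts scaled to a common library total) in cerebellum and at 0 to 0.0393 CPM in hippocampus, and Neurod6, a transcription factor of forebrain excitatory neurons, averaged 7.67 ± 0.34 CPM in KO cerebellum, 7.25 ± 0.61 CPM in WT cerebellum, 186.22 ± 2.07 CPM in KO hippocampus and 199.94 ± 6.99 CPM in WT hippocampus (SD, n = 3 each). Levels below are CPM after scaling by trimmed mean of M values (TMM) over the 12 libraries, and fold changes are log2 values ± SE from edgeR's quasi-likelihood test. Calls were made where the p, adjusted after Benjamini and Hochberg over all genes tested, was under 0.05. In the deposited tables the 2 tissues stand in separate tables whose column names carry different tags, so tissue and any difference in how the tissues were run cannot be told apart.

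Syt14 itself (chr1:192891233-193035775, GRCm38) was read first. It stood at 30.6, 30.7 and 30.3 CPM in KO cerebellum, against 33.8, 33.3 and 38.2 CPM in WT cerebellum. In hippocampus it stood at 29.2, 28.0 and 30.6 CPM in KO mice, against 38.5, 38.9 and 38.1 CPM in WT mice. Every KO library was below every WT library in both tissues, but most of the gene's counts remained in the KO libraries. The log2 fold change of KO over WT was -0.20 ± 0.06 in cerebellum (edgeR unadjusted p = 0.00897, adjusted p = 0.644). In hippocampus it was -0.39 ± 0.06 (edgeR unadjusted p = 3.88e-05, adjusted p = 0.686), so neither was called. By p, Syt14 ranked 1 of the 17693 genes tested in hippocampus and 245 of the 17733 in cerebellum. For a single gene, the two-sided exact permutation test of 3 against 3 gave p = 0.1 in each tissue, the smallest it can give. The count is summed over the gene and the altered part is not given, so which exons the remaining counts come from was not tested and the genotype labels are not checked by it.

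The members differed between the tissues far more than between the genotypes. In KO mice 19 of 27 members were called between cerebellum and hippocampus, 10 higher and 9 lower in cerebellum, which is 70.4% of the members, against 64.1% of the 18200 genes tested (32.5% higher and 31.6% lower). In WT mice 21 were called, 11 higher and 10 lower, which is 77.8%, against 66.1% of 18128 genes tested (33% higher and 33.1% lower). The libraries of the 2 tissues did not overlap for 21 members in KO mice, against 70.3% of genes tested, and for 22 in WT mice, against 70.7%. The share called was thus close to that of all genes, and the sizes were smaller: the median absolute log2 fold change of the members was 0.204 in KO and 0.23 in WT mice, against 0.462 and 0.464 over all genes tested. The filter let in genes from a minimum count of 10, far below any member, and sizes were not compared at matched levels. The same 19 members were called, in the same direction, in both genotypes, which are different animals and share no library. All 27 members had the same sign in KO and WT mice, and the largest gap between the genotypes, 0.206, was that of Aptx. The shares of all genes called in both genotypes, or of the same sign in both, were not computed. With 64.1% and 66.1% of all genes called, this agreement is not shown to be particular to the members. These are bulk tissues, so fewer cells of a type and less RNA per cell cannot be told apart. The summed level of 7 Purkinje cell markers was 3311 to 3932 CPM over the cerebellum libraries against 343 to 385 CPM over the hippocampus libraries. The hippocampus sum does not measure Purkinje cells, since it came mostly from Calb1 and Rgs8. Calb1 averaged 134 CPM in KO and 126 CPM in WT hippocampus, and Rgs8 122 and 118 CPM. Pcp2 was at 0.114 to 0.629 CPM over the hippocampus libraries, against 161 to 200 CPM over the cerebellum libraries.

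**Figure D1:**
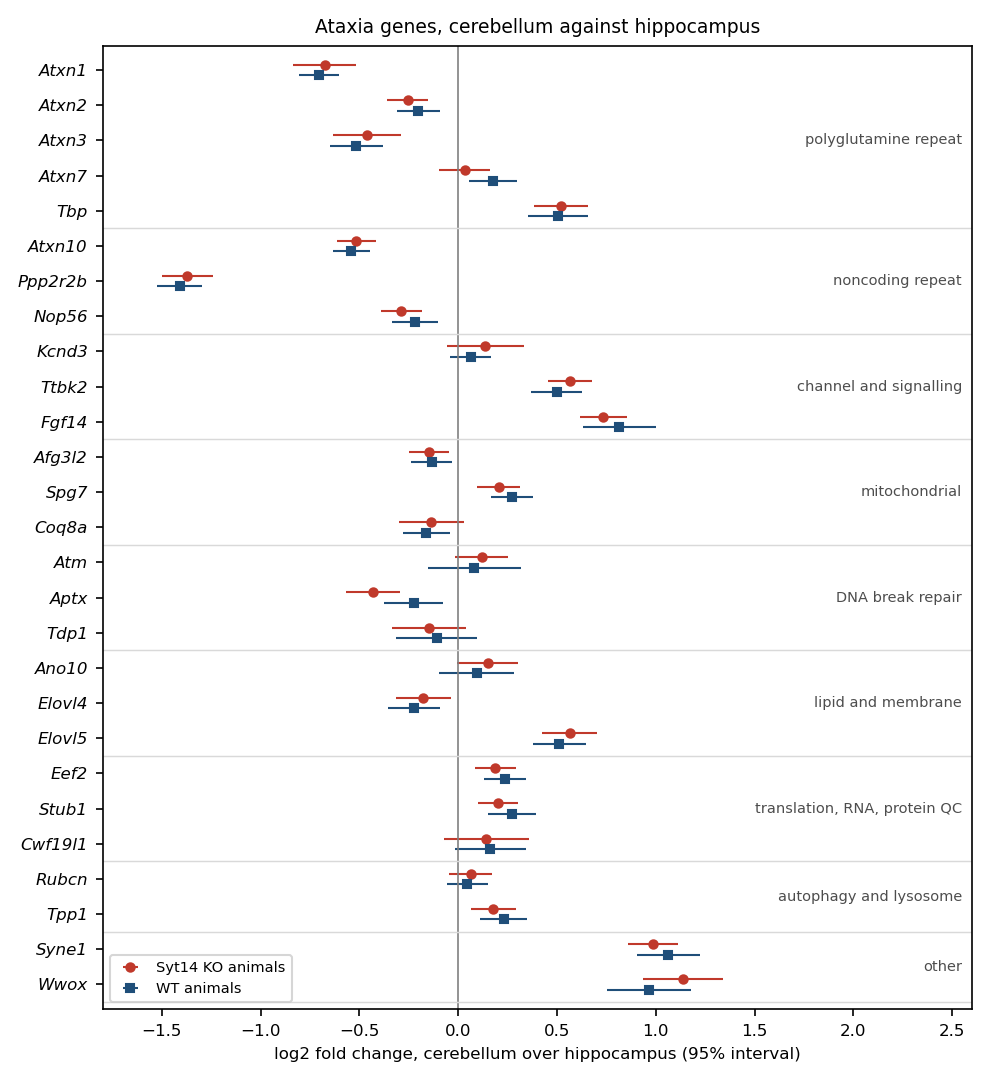
Log2 fold change of cerebellum over hippocampus for each of the 27 genes, with 95% intervals, in KO mice (red circles, above) and WT mice (blue squares, below); 3 libraries per tissue and genotype, genes grouped by role. Ppp2r2b lies farthest to the left at -1.37 and -1.41, and Syne1 and Wwox farthest to the right, near 1 in both genotypes.

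The polyglutamine genes did not move together between the tissues. Atxn1 (chr13:45549755-45965008), a nuclear protein that works with the repressor Capicua and is expanded in SCA1, had 64.6, 53.3 and 63.8 CPM in KO cerebellum and 56.8, 55.5 and 56.0 CPM in WT cerebellum. In hippocampus it had 96.9, 94.7 and 99.5 CPM in KO mice and 92.8, 91.6 and 89.2 CPM in WT mice. All 6 cerebellum libraries were below all 6 hippocampus libraries, with a log2 fold change of -0.67 ± 0.07 in KO (edgeR adjusted p = 2.36e-05) and -0.71 ± 0.05 in WT mice (edgeR adjusted p = 2.38e-08). Tbp (chr17:15499888-15528379), the TATA-binding protein of the basal transcription machinery and the SCA17 gene, went the other way. It had 47.3, 45.4 and 49.1 CPM in KO cerebellum, 43.5, 47.0 and 46.4 CPM in WT cerebellum, 32.7, 34.9 and 31.6 CPM in KO hippocampus and 32.9, 34.3 and 29.0 CPM in WT hippocampus. The tissues did not overlap, and its log2 fold change was 0.52 ± 0.06 in KO and 0.51 ± 0.07 in WT mice (edgeR adjusted p = 5.44e-05 and 2.97e-05). Atxn3, a deubiquitinase, was lower in cerebellum by a log2 fold change of -0.46 in KO and -0.52 in WT mice, and Atxn2, an RNA-binding protein, by -0.26 and -0.20. Atxn7, a subunit of the SAGA chromatin complex, was called in WT mice only, at 0.18, against 0.03 in KO mice. Its WT call was lost without WT hippocampus replicate 3 (adjusted p = 0.0622).

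The 3 noncoding repeat genes were all lower in cerebellum in both genotypes. Ppp2r2b (chr18:42637432-43059471), a brain-enriched regulatory subunit of protein phosphatase 2A and the SCA12 gene, had 44.1, 39.9 and 42.6 CPM in KO cerebellum and 40.8, 41.9 and 41.8 CPM in WT cerebellum. It had 104, 109 and 116 CPM in KO hippocampus and 108, 106 and 116 CPM in WT hippocampus. This was the largest tissue difference among the 27 genes, at -1.37 ± 0.06 in KO and -1.41 ± 0.05 in WT mice (edgeR adjusted p = 3.66e-08 and 6.92e-11). Atxn10 (chr15:85336245-85463212), an abundant cytoplasmic protein whose intron carries the SCA10 repeat, had 157, 148 and 151 CPM in KO cerebellum and 156, 148 and 152 CPM in WT cerebellum, against 216, 220 and 218 CPM in KO hippocampus and 221, 218 and 224 CPM in WT hippocampus. Its libraries were tightly grouped within a tissue, and its log2 fold change was -0.51 ± 0.04 in KO and -0.54 ± 0.04 in WT mice (edgeR adjusted p = 5.14e-06 and 1.65e-07). Nop56, a core protein of the small nucleolar particles that guide rRNA methylation, followed at -0.29 in KO and -0.22 in WT mice; 328 of its exon bases are shared with small RNA genes on the same strand, such as Snord57.

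Of the channel and signalling members, Fgf14 and Ttbk2 were higher in cerebellum. Fgf14 (chr14:123977907-124677127), an intracellular fibroblast growth factor homolog that binds voltage-gated sodium channels and is the SCA27 gene, had 67.5, 69.4 and 68.2 CPM in KO cerebellum and 78.0, 71.5 and 94.2 CPM in WT cerebellum. It had 42.3, 42.4 and 39.1 CPM in KO hippocampus and 46.5, 44.4 and 47.2 CPM in WT hippocampus. The tissues did not overlap, and the log2 fold change was 0.73 ± 0.05 in KO and 0.82 ± 0.09 in WT mice (edgeR adjusted p = 1.70e-06 and 2.47e-06). Ttbk2, a kinase needed for ciliogenesis and the SCA11 gene, was higher by 0.56 in KO and 0.50 in WT mice; it lay just under the size of 0.5 chosen for giving values per library, and 3409 of its exon bases are shared with Cdan1 on the same strand. Kcnd3, a subunit of the potassium channels that carry A-type current, was called in neither genotype, with values of 0.14 in KO and 0.06 in WT mice.

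**Figure D2:**
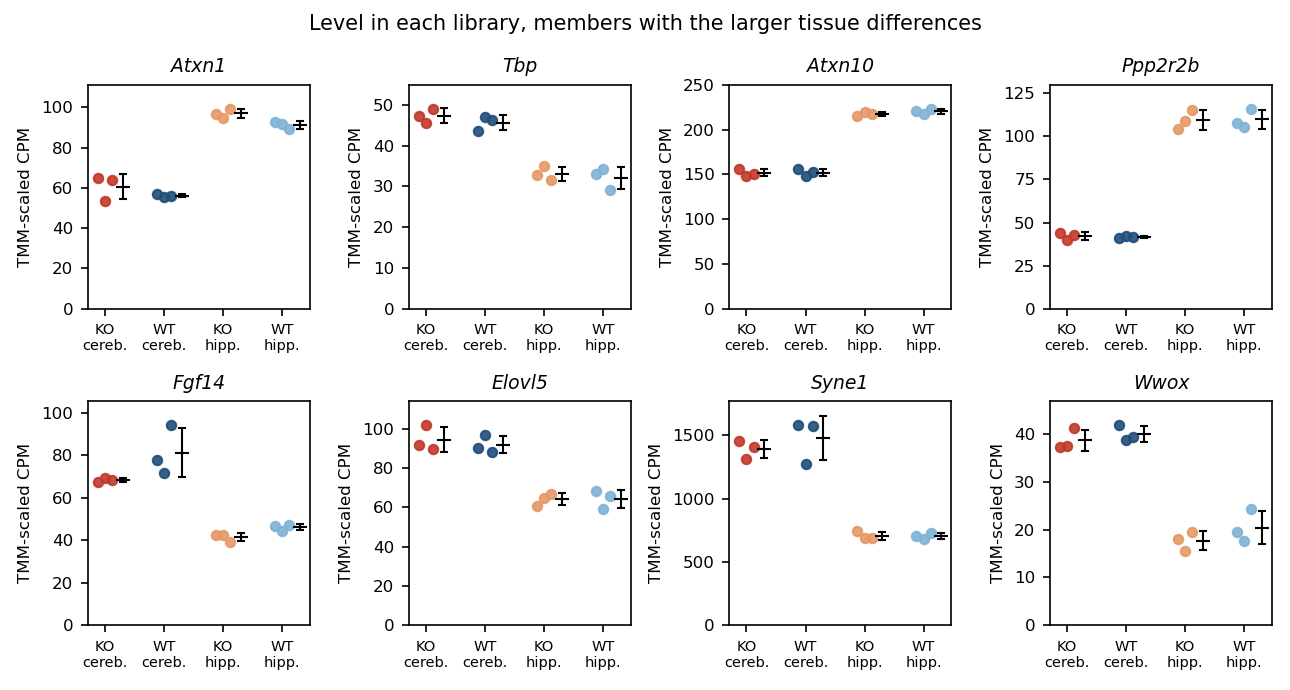
TMM-scaled CPM in each library (points; bar and whiskers, mean ± SD, n = 3) for the 8 genes called in both genotypes with a log2 fold change of at least 0.5 in size in both. In every panel the cerebellum points are separated from the hippocampus points; KO and WT points of a tissue overlap or lie near each other in most panels, while for Fgf14 the KO points lie below the WT points in both tissues; axes start at 0 and differ between panels.

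Syne1 and Wwox had the largest positive differences. Syne1 (chr10:5020917-5551482), a giant spectrin-repeat protein that ties the nucleus to the cytoskeleton and is mutated in a recessive ataxia, had 1457, 1314 and 1408 CPM in KO cerebellum and 1581, 1276 and 1574 CPM in WT cerebellum. In hippocampus it had 741, 692 and 684 CPM in KO mice and 707, 682 and 725 CPM in WT mice. The log2 fold change was 0.99 ± 0.06 in KO and 1.06 ± 0.07 in WT mice (edgeR adjusted p = 2.86e-07 and 4.06e-08). Wwox (chr8:114439655-115352708), a WW-domain oxidoreductase, had 37.3, 37.5 and 41.3 CPM in KO cerebellum and 42.0, 38.9 and 39.5 CPM in WT cerebellum, against 18.03, 15.5 and 19.5 CPM in KO hippocampus and 19.5, 17.6 and 24.4 CPM in WT hippocampus. Even its highest hippocampus library, WT replicate 3, was below every cerebellum library, and the log2 fold change was 1.14 ± 0.09 in KO and 0.97 ± 0.10 in WT mice (edgeR adjusted p = 3.06e-06 and 1.77e-06).

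The lipid genes split. Elovl5 (chr9:77917364-77984519), a fatty acid elongase of polyunsaturated chains and the SCA38 gene, had 92.02, 102 and 89.8 CPM in KO cerebellum and 90.6, 96.7 and 88.4 CPM in WT cerebellum, against 61.0, 64.8 and 66.8 CPM in KO hippocampus and 68.2, 59.0 and 65.9 CPM in WT hippocampus. The tissues did not overlap, and it was higher in cerebellum by 0.57 ± 0.06 in KO and 0.51 ± 0.06 in WT mice (edgeR adjusted p = 3.22e-05 and 8.30e-06). Its relative Elovl4, which makes very long chain fatty acids and is the SCA34 gene, was lower in cerebellum by -0.18 in KO and -0.22 in WT mice. The KO call for Elovl4 was lost with the animal as a block (adjusted p = 0.0616) and without KO hippocampus replicate 2, KO cerebellum replicate 2 or KO cerebellum replicate 3 (adjusted p = 0.116, 0.107 and 0.0646). Ano10, a membrane protein of the anoctamin family, was called in neither genotype, at 0.15 in KO and 0.09 in WT mice.

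The remaining roles showed small tissue differences. Of the mitochondrial members, Spg7 was higher in cerebellum by 0.20 in KO and 0.27 in WT mice, while its partner in the inner-membrane m-AAA protease, Afg3l2, was lower by -0.15 and -0.13. The Afg3l2 call was lost in WT mice without WT hippocampus replicate 1 or 3 or WT cerebellum replicate 1 or 2 (adjusted p = 0.09995, 0.0631, 0.0672 and 0.0846), and in KO mice without KO cerebellum replicate 1 (adjusted p = 0.0678). With no filter on low counts it was lost in both (adjusted p = 0.0544 in KO and 0.0681 in WT mice). Coq8a, an atypical kinase of coenzyme Q synthesis, stood at -0.14 in KO and -0.16 in WT mice and was called in WT only. That WT call was lost without WT hippocampus replicate 1 or 2 or WT cerebellum replicate 2 or 3 (adjusted p = 0.0690, 0.0675, 0.0599 and 0.0554), and a KO call was gained without KO cerebellum replicate 3 (adjusted p = 0.0349). Among the DNA break repair genes only Aptx, which removes abortive ligation products, was called, at -0.43 ± 0.06 in KO and -0.23 ± 0.07 in WT mice (edgeR adjusted p = 1.82e-04 and 0.0111). Atm, the damage-signalling kinase of ataxia telangiectasia, stood at 0.12 and 0.08, and Tdp1, which frees trapped topoisomerase, at -0.15 and -0.11. Atm gained a WT call without WT cerebellum replicate 2 (adjusted p = 0.0392), and Kcnd3 a KO call without KO hippocampus replicate 2 (adjusted p = 0.0479).

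Eef2, the translocation factor of translation, was higher in cerebellum by 0.19 in KO and 0.24 in WT mice, and Stub1, a chaperone-linked ubiquitin ligase also called CHIP, by 0.20 and 0.27. Cwf19l1, a relative of a yeast factor of intron lariat debranching, was called in neither genotype, at 0.14 in KO and 0.16 in WT mice. The lysosomal protease Tpp1 was higher by 0.18 in KO and 0.23 in WT mice, with its KO call lost without KO hippocampus replicate 3 (adjusted p = 0.0507). Rubcn, a regulator of autophagosome maturation, was not called, at 0.06 and 0.05. For Stub1, 42.33% of exon bases overlap Jmjd8 on the opposite strand. For Tbp, 19.02% overlap Pdcd2 on the opposite strand: all 2582 exon bases of Pdcd2 lie within Tbp exons, and Pdcd2 is listed at 0 counts in all 12 libraries. The libraries were made with a dUTP strand-specific protocol, but the sources used here do not state the strand setting of the counting. The levels of Stub1 and Tbp are thus uncertain to the extent of these shared bases. Smaller opposite-strand overlaps, such as 6.91% of exon bases in Coq8a and 5.26% in Fgf14, leave the same uncertainty for those members.

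Compared per length, as CPM per kilobase of exon (RPKM) averaged over 3 libraries, Eef2 was the highest member in all groups, at 362 RPKM in KO cerebellum, 377 RPKM in WT cerebellum, 319 RPKM in KO hippocampus and 319 RPKM in WT hippocampus. Atxn10 was next in each group, at 78.5 RPKM in KO and in WT cerebellum, 113 RPKM in KO hippocampus and 114 RPKM in WT hippocampus. Between these 2 genes the levels were well apart, and the median member stood at 10.6, 10.4, 9.17 and 9.71 RPKM in the same order of groups. The order below them changed with the tissue: Ppp2r2b ranked 14 of 27 in KO and WT cerebellum but 4 in KO and 3 in WT hippocampus, while Syne1 ranked 3 in cerebellum and 8 in hippocampus in both genotypes. Together the 27 genes took 0.437 to 0.454% of counts in KO cerebellum and 0.438 to 0.472% in WT cerebellum, against 0.328 to 0.332% in KO hippocampus and 0.324 to 0.331% in WT hippocampus. Without Syne1 and Eef2 the shares were 0.170 to 0.174%, 0.172 to 0.173%, 0.160 to 0.164% and 0.158 to 0.162%. Those 2 genes thus made up most of the gap in these shares, which are of counts before TMM scaling. The TMM factors were 1.0355 to 1.0653 in cerebellum and 0.9418 to 0.9605 in hippocampus libraries. The small gap left without the 2 genes therefore depends on the scaling. Replicates agreed closely: the median coefficient of variation of a member within a group was 3.49 to 4.09%, and the highest in any group was that of Wwox in WT hippocampus, at 17.2%.

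The genotype comparison called none of the 27 genes in either tissue. In cerebellum 0 members were called, against 0.0113% of the 17733 genes tested, which is 2 genes; 1 member and 1200 genes (6.77%) had an unadjusted p under 0.05. In hippocampus 0 members were called, against 0% of the 17693 genes tested; 3 members and 767 genes (4.34%) had an unadjusted p under 0.05. DESeq2 and limma-voom also called 0 members in both tissues. The median log2 fold change of the members was -0.01 in cerebellum (11 above 0 and 16 below) and -0.00131 in hippocampus (12 above 0 and 15 below), against 0.00247 and 0.00174 over all genes tested. The 95% interval of every member lay within 0.5 of 0 on the log2 scale in both tissues, and within 0.32 of 0 for 26 members in cerebellum and 24 in hippocampus. Cerebellum libraries of the same replicate number deviated together, although KO and WT libraries come from different mice and the labels do not pair them. An alternative fit blocked on the number called 36 genes in cerebellum and again 0 members.

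**Figure D3:**
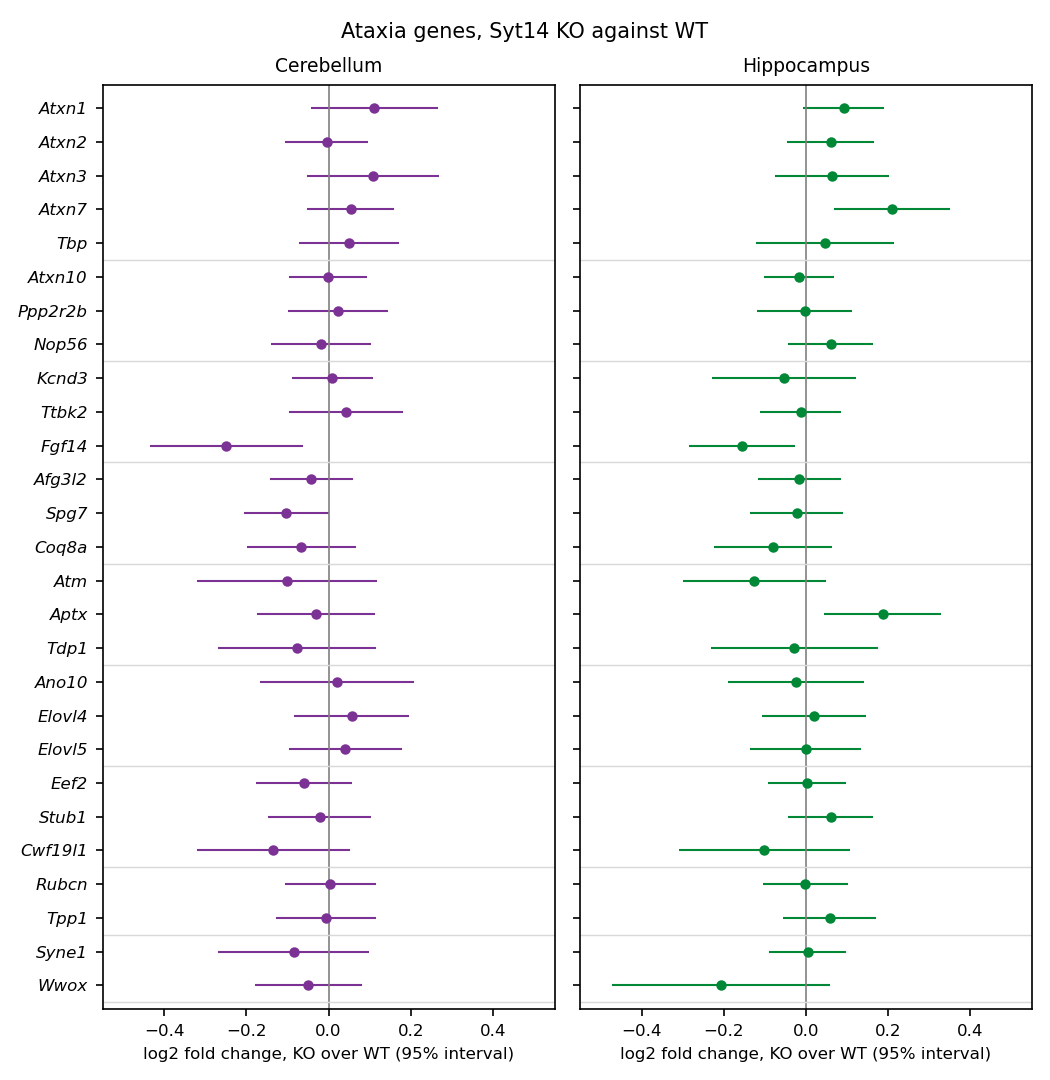
Log2 fold change of KO over WT for each of the 27 genes with 95% intervals, in cerebellum (left) and hippocampus (right), 3 libraries per group. The points gather around 0 in both tissues; Fgf14 lies lowest in cerebellum at -0.25, and Atxn7 highest in hippocampus at 0.21.

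In cerebellum the member with the smallest p was Fgf14. The KO libraries had 67.5, 69.4 and 68.2 CPM, against 78.0, 71.5 and 94.2 CPM in WT libraries. All KO libraries were below all WT libraries, while WT replicate 3 stood well above its own group. The log2 fold change was -0.25 ± 0.08 (95% interval -0.44 to -0.06; edgeR unadjusted p = 0.0138, adjusted p = 0.687), and it was -0.13 without WT cerebellum replicate 3. Of the alternatives run, only the one with no filter on low counts, where 417 genes were called, had Fgf14 pass, with an adjusted p of 0.00191. Spg7 had 63.0, 62.2 and 66.6 CPM in KO libraries, against 68.1, 67.9 and 70.0 CPM in WT libraries, at -0.10 ± 0.05 (edgeR adjusted p = 0.736). Its groups did not overlap, but the lowest WT library lay only just above the highest KO library. Atxn1 had 64.6, 53.3 and 63.8 CPM in KO libraries, against 56.8, 55.5 and 56.0 CPM in WT libraries, at 0.11 ± 0.07 (edgeR adjusted p = 0.803), with KO replicate 2 below all WT libraries and the other KO libraries above them. The Atxn1 value was 0.19 without KO replicate 2 (adjusted p = 0.506) and 0.06 without KO replicate 1 (adjusted p = 0.998).

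In hippocampus the members with the smallest p were Atxn7, Aptx and Fgf14. Atxn7 (chr14:13961440-14107302) had 52.5, 46.7 and 50.3 CPM in KO libraries, against 43.4, 45.3 and 40.8 CPM in WT libraries, a log2 fold change of 0.21 ± 0.06 (edgeR unadjusted p = 0.00744, adjusted p = 0.995). Aptx (chr4:40682382-40703194) had 31.4, 33.1 and 32.3 CPM in KO libraries, against 29.5, 26.9 and 28.8 CPM in WT libraries, at 0.19 ± 0.07 (edgeR unadjusted p = 0.0149, adjusted p = 0.995). For both genes the KO libraries lay above the WT libraries without overlap. Fgf14 had 42.3, 42.4 and 39.1 CPM in KO libraries, against 46.5, 44.4 and 47.2 CPM in WT libraries, at -0.16 ± 0.06 (edgeR unadjusted p = 0.0212, adjusted p = 0.995), again with every KO library below every WT library.

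**Figure D4:**
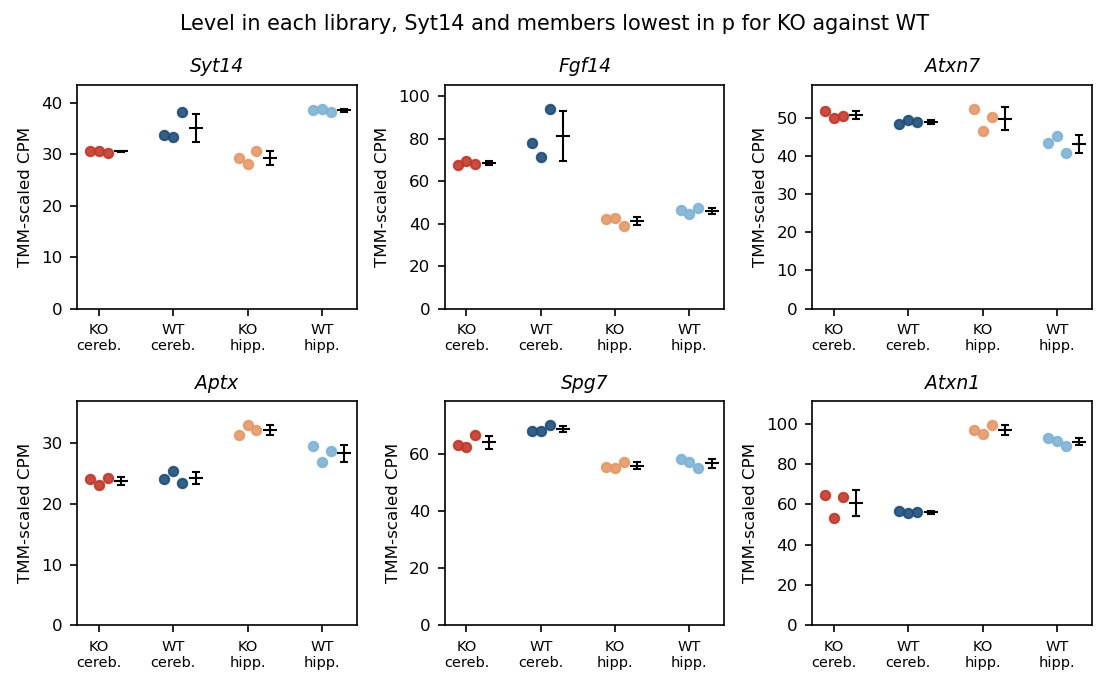
TMM-scaled CPM in each library (points; bar and whiskers, mean ± SD, n = 3) for Syt14 and the 5 members with the smallest p for KO against WT in either tissue. Syt14 and Fgf14 show KO points below WT points in both tissues, and Aptx shows a gap between KO and WT in hippocampus but not in cerebellum; axes start at 0 and differ between panels.

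Counted by whether the KO and WT libraries overlapped, 4 members stood apart in cerebellum, or 14.8%, against 11.9% of all genes tested. They were Atxn7, higher in all KO libraries, and Fgf14, Spg7 and Cwf19l1, lower in all KO libraries. In hippocampus 6 members stood apart, or 22.2%, against 9.81% of all genes tested: Atxn1, Atxn7, Aptx and Stub1 were higher in all KO libraries, and Fgf14 and Cwf19l1 lower. Atxn7, Fgf14 and Cwf19l1 stood apart in the same direction in both tissues, which come from the same mice. None of these passed the adjusted threshold, and over the 27 genes the sign of the KO difference was the same in both tissues for 14. The shares of all genes that stood apart in the same direction in both tissues, or had the same sign in both, were not computed. These counts are thus not shown to be particular to the members. Coq8a, the only member on chromosome 1, lies 12.7 Mb from Syt14 and had values of -0.07 in cerebellum and -0.08 in hippocampus.

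By role, the log2 differences of KO over WT were small and of either sign, and no member was called in any role. In cerebellum the polyglutamine genes lay between -0.00468 and 0.11 (4 of 5 above 0), the noncoding repeat genes between -0.02 and 0.02 (1 of 3 above 0) and the channel and signalling genes between -0.25 and 0.04 (2 of 3 above 0). The mitochondrial genes lay between -0.10 and -0.04 there, the DNA break repair genes between -0.10 and -0.03 and the translation, RNA and protein quality control genes between -0.13 and -0.02, with 0 of 3 above 0 in each. The lipid and membrane genes lay between 0.02 and 0.06, all 3 above 0, the autophagy and lysosome genes between -0.00631 and 0.00414, and Syne1 and Wwox at -0.08 and -0.05. In hippocampus the polyglutamine genes lay between 0.05 and 0.21 (5 of 5 above 0), the noncoding repeat genes between -0.02 and 0.06 (1 of 3 above 0) and the channel and signalling genes between -0.16 and -0.01 (0 of 3 above 0). The mitochondrial genes lay between -0.08 and -0.02 there (0 of 3 above 0), the DNA break repair genes between -0.13 and 0.19 (1 of 3 above 0) and the translation, RNA and protein quality control genes between -0.10 and 0.06 (2 of 3 above 0). The lipid and membrane genes lay between -0.02 and 0.02 (1 of 3 above 0), the autophagy and lysosome genes between -0.00131 and 0.06, and Syne1 and Wwox at 0.00430 and -0.21. Over all genes tested, 9050 of 17733 lay above 0 in cerebellum and 8981 of 17693 in hippocampus.

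Marker genes of other cell types also differed between KO and WT libraries in places, but none of them was called in either tissue. In cerebellum the summed level of 7 choroid plexus markers was 973, 1783 and 27.4 CPM in KO libraries, against 1968, 2679 and 1058 CPM in WT libraries, with Ttr at 0.597 CPM in KO replicate 3. Without that library, 0 members were called. The sum of 7 microglia markers was 104 to 108 CPM in KO cerebellum, against 89.2 to 93.5 CPM in WT cerebellum. Much of that gap lay in the complement genes: C1qa averaged 14.2 CPM in KO and 9.94 CPM in WT cerebellum, C1qb 13.5 and 9.76, and C1qc 13.5 and 10.3. Csf1r averaged 32.6 and 29.8 CPM, Cx3cr1 17.1 and 16.4, P2ry12 9.46 and 8.99, and Tmem119 5.99 and 6.11. The sum of 7 oligodendrocyte markers was 6082 to 6699 CPM in KO cerebellum, against 5587 to 5975 CPM in WT cerebellum. The 8 brainstem markers summed to 73.9, 100.7 and 57.8 CPM in KO cerebellum, against 65.6, 68.4 and 61.3 CPM in WT cerebellum. Slc6a5 made up most of each sum, so the sums do not give a brainstem level. It had 44.3, 52.3 and 50.3 CPM in KO cerebellum, against 50.8, 57.9 and 51.2 CPM in WT cerebellum. Of the 5 brainstem markers that were tested, 4 lay above 0 and the median was 2.49 on the log2 scale. Dbh, an enzyme of noradrenaline synthesis, had 3.42, 10.2 and 0.0996 CPM in KO libraries, against 1.07, 0.350 and 0.516 CPM in WT libraries. In hippocampus the 7 meninges markers summed to 77.2, 81.8 and 66.2 CPM in KO mice, against 86.6, 141.9 and 79.9 CPM in WT mice, with all 7 below 0 and a median of -0.585 on the log2 scale. In hippocampus the sum of 7 endothelium and pericyte markers was 303 to 336 CPM in KO mice, against 351 to 393 CPM in WT mice. Purkinje marker sums overlapped between KO cerebellum, at 3311 to 3932 CPM, and WT cerebellum, at 3337 to 3804 CPM. The sums of granule cell markers (5144 to 6125 and 5553 to 6070 CPM) and astrocyte markers (2147 to 2151 and 1986 to 2189 CPM) overlapped there too. Etv1 (means 465 and 517 CPM) and Zic2 (294 and 329 CPM), 2 of 8 granule markers, were lower in all KO libraries. Of 7 astrocyte markers, Gfap (203 and 163 CPM) was higher in all KO libraries and Aldh1l1 lower. Over all genes tested, 11.9% stood apart. The part of these cell types in the values of the 27 genes was not tested.

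Whether the KO effect differed between the tissues was tested with the interaction term over all 12 libraries. No member was called, against 0.0105% of the 19027 genes tested, which is 2 genes; 1 member and 1016 genes (5.34%) had an unadjusted p under 0.05. The smallest p belonged to Aptx, whose KO effect in cerebellum minus that in hippocampus was -0.21 ± 0.09 (edgeR unadjusted p = 0.0247, adjusted p = 0.897). In cerebellum Aptx had 24.2, 23.1 and 24.3 CPM in KO libraries, against 24.1, 25.4 and 23.5 CPM in WT libraries, so the groups overlapped there, unlike in hippocampus. Atxn7 was next, at -0.15 ± 0.08 (edgeR unadjusted p = 0.0698, adjusted p = 0.919), with 51.8, 49.9 and 50.6 CPM in KO cerebellum, against 48.3, 49.5 and 48.9 CPM in WT cerebellum. For Fgf14 the difference was -0.09 ± 0.11 (95% interval -0.33 to 0.15), and for Syt14 it was 0.19 ± 0.09 (edgeR adjusted p = 0.919).

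Other ataxia genes are given beside these values. Their lists were chosen with earlier results of these data known, so the contrast between lists is a description only. Of 19 ataxia genes that encode channels, receptors, pumps or transporters, 16 were called between the tissues in KO mice (84.2%; 14 higher and 2 lower in cerebellum) and 17 in WT mice (89.5%; 14 higher and 3 lower). The share called over all genes tested was 64.1% in KO and 66.1% in WT mice. The median log2 fold change of the 19 genes was 0.99 in KO and 1.03 in WT mice, against 0.12 and 0.08 for the 27 genes and 0.03 and 0.02 over all genes tested. Itpr1, the calcium release channel mutated in SCA15, had 2818, 3387 and 3755 CPM in KO cerebellum and 3294.2, 2947 and 3968 CPM in WT cerebellum. In hippocampus it had 565, 499 and 575 CPM in KO mice and 524, 516 and 551 CPM in WT mice. The tissues did not overlap, and its log2 fold change was 2.61 ± 0.10 in KO and 2.68 ± 0.09 in WT mice (edgeR adjusted p = 2.63e-08 and 3.02e-11). No gene of this list was called between KO and WT mice in either tissue.

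**Figure D5:**
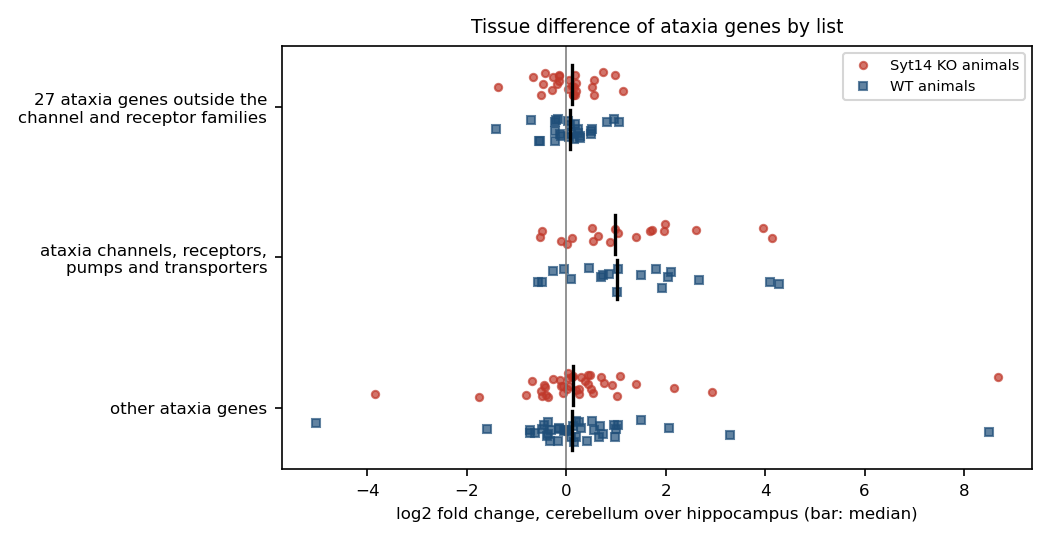
Log2 fold change of cerebellum over hippocampus for the 27 genes, for 19 ataxia genes of channels, receptors, pumps and transporters, and for 40 other ataxia genes, in KO mice (red circles, above) and WT mice (blue squares, below); black bars are medians and vertical scatter has no meaning. The middle list is shifted to the right, with medians of 0.99 and 1.03, while the medians of the other lists lie near 0.1.

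A list of 41 further ataxia genes, of which 40 were tested, held 29 called in KO mice (72.5%; 18 higher and 11 lower in cerebellum) and 30 in WT mice (75%; 19 higher and 11 lower), with medians of 0.13 in KO and 0.12 in WT mice. Over all genes tested, 64.1% were called in KO and 66.1% in WT mice. Car8, a carbonic anhydrase-related protein of Purkinje cells that binds the receptor encoded by Itpr1, had 1500, 1622 and 1739 CPM in KO cerebellum and 1515, 1456 and 1806 CPM in WT cerebellum, against 3.39 to 4.30 CPM in KO hippocampus and 4.14 to 4.64 CPM in WT hippocampus. Its log2 fold change was 8.68 in KO and 8.50 in WT mice, the largest among the ataxia genes examined. Pdyn, the precursor of the dynorphin peptides and the SCA23 gene, was lower in cerebellum, at -3.83 in KO and -5.03 in WT mice, with 0.266 to 1.21 CPM in KO cerebellum and 0.273 to 0.404 CPM in WT cerebellum. Plekhg4, a guanine nucleotide exchange factor, was higher by 2.94 in KO and 3.29 in WT mice, and Cyp27a1, a sterol hydroxylase of bile acid synthesis, by 2.18 and 2.07. Between KO and WT mice, none of the 40 genes was called in either tissue.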

How the data were processed

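The authors deposited gene-level read counts per library, as 1 table per tissue. Per the submitters' processing notes, reads were handled with Trimmomatic 0.39, STAR 2.7.10 and featureCounts 2.0.3 on mm10 (GRCm38); the sources used here name no annotation release and no strand setting for the counting. Per the labels' protocols, libraries were poly(A)-selected and made with dUTP, so that strand was kept. Of 54446 gene IDs, 54409 matched GENCODE M21, which supplied symbols, coordinates and exon lengths.

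Each comparison was fitted on the deposited counts with edgeR 4.0.16 (R 4.3.3): filterByExpr (minimum count 10), TMM scaling, quasi-likelihood F test, two-sided, Benjamini-Hochberg adjustment over all genes tested, called at adjusted p under 0.05. KO and WT were fitted within a tissue, the tissues within a genotype, and the difference of the KO effects as an interaction over all 12 libraries. The code was tested on simulated data. Alternatives were DESeq2 1.42.0, limma-voom (limma 3.58.1), DESeq2 size factors, no filter, a filter of at least 1 CPM in at least 3 libraries, all 12 libraries in 1 fit, a replicate block, and each library left out in turn. Libraries of 1 group differed by more than sampling noise in all 12 pairs (chi-square per gene of 4.111 to 12.724), so none was counted as a repeat.

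For the tissue comparisons the block is the animal, since the labels give both tissues of a mouse the same animal number; the correlation of their deviations from the group means was 0.0196 to 0.0513 in KO and 0.0532 to 0.133 in WT mice. KO and WT libraries of the same replicate number come from different mice, and the labels do not pair them. The correlations of their deviations were 0.12 to 0.311 in cerebellum and -0.0108 to 0.138 in hippocampus. The main fits used no block, and the replicate block was run as an alternative in both tissues.

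Values per library are given, for KO against WT, for members called, filled up to 3 per tissue by the smallest p (2 for the difference of the effects); for the tissues, for members called in both genotypes with a log2 fold change of at least 0.5 in size in both; and for the other ataxia lists, for up to 4 genes with the largest tissue difference in WT among those called in both genotypes; some genes that this rule names are not reported here. The members, roles and other lists were chosen with earlier results of these data known. The limit that a count of 0 allows is 3 counts per library and covers counting error only.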

Additional observations from a re-analysis of the deposited data

How the results depend on the processing

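Over 13 alternatives per comparison (18 for the difference of the KO effects), the number of members called between KO and WT mice was 0 in hippocampus and 0 for the difference throughout, and 0 in cerebellum except with no filter on low counts, where it was 1: Fgf14, at -0.25 with an adjusted p of 0.00191. Leaving out each library in turn gave 0 members in all 3. The numbers called between the tissues were 18 to 19 in KO mice and 19 to 21 in WT mice over all alternatives, and 18 to 19 in KO and 19 to 20 in WT mice with each library left out. All 8 members given per library kept their direction and their call under every alternative. With the replicate block the counts of members called were 0 in both tissues for KO against WT and for the difference, 18 in KO mice (Elovl4 was lost) and 21 in WT mice between the tissues; it changed no other call of a member. Syt14 in hippocampus was called with DESeq2 (adjusted p = 0.0196) and with no filter on low counts (adjusted p = 0.000322). Numbers of genes called between KO and WT moved more than the members did: in cerebellum 2 with edgeR, 37 with DESeq2, 36 with the block, 4 with all 12 libraries, 33 without KO replicate 3 and 417 with no filter. In hippocampus they were 0 with edgeR, 4 with DESeq2, 2 with the block, 2 without KO replicate 3 and 77 with no filter, and for the difference 2 with edgeR, 10 with DESeq2, 44 without KO cerebellum replicate 3 and 275 with no filter. The cause was not tested. With 3 mice per group, the interval reaching farthest from 0 was that of Wwox in hippocampus, -0.47 to 0.06 around -0.21 on the log2 scale.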

Other observations

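The overlapping neighbours of 5 members were called between the tissues in both genotypes. Over all genes tested, 64.1% were called in KO and 66.1% in WT mice. Kcnd3os, opposite Kcnd3, was tested and called in neither genotype (edgeR adjusted p = 0.131 in KO and 0.404 in WT mice). Some overlapping genes, such as Sh2b3 opposite Atxn2 and Idh3b opposite Nop56, were not examined. Cdan1, which shares 3409 exon bases with Ttbk2 on the same strand, was higher in cerebellum by 0.61 ± 0.08 in KO and 0.81 ± 0.06 in WT mice (edgeR adjusted p = 1.27e-04 and 1.06e-07). Jmjd8, opposite Stub1, was higher by 0.38 ± 0.12 in KO and 0.26 ± 0.10 in WT mice (edgeR adjusted p = 0.0163 and 0.0345). Gmpr, which shares 2.7% of the exon bases of Atxn1 on the opposite strand, was lower by -1.18 ± 0.09 in KO and -1.19 ± 0.07 in WT mice (edgeR adjusted p = 3.20e-06 and 6.05e-09). Cdc42bpa, opposite Coq8a, was higher by 0.25 ± 0.05 in KO and 0.21 ± 0.06 in WT mice (edgeR adjusted p = 0.00274 and 0.00869), and Fyttd1, opposite Rubcn, was lower by -0.14 ± 0.05 and -0.34 ± 0.05 (edgeR adjusted p = 0.0212 and 5.24e-05). Their part in the member counts was not tested.

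RefSeq promoters (GRCm38.p6; 250 bases before and 50 after the start) were matched by symbol for 23 of the 27 genes (all but Atxn1, Ppp2r2b, Afg3l2 and Wwox), 30 promoters in all. The letters GGGCGG, read on both strands, occurred in 19 of the 30 member promoters, belonging to 18 genes, and in 35.658% of 32851 promoters of all genes. The median GC content was 63.2% in member promoters and 52.7% in all promoters. The letters TGACGTCA, a cyclic AMP response element, occurred in 3 of the 30 member promoters, those of Aptx, Eef2 and Elovl5, and in 1.79% of all promoters. Other motifs were read as well. The letters CCAAT occurred in 10 of the 30 member promoters and in 37.408% of all promoters, and TATAAA in 4 and in 13.616%. TGACG, the start of TGACGTCA, occurred in 9 of the 30 and in 20.812% of all promoters. A motif of the factor NRF1 occurred in 1 of the 30 and in 0.971% of all promoters. These matches describe letters in a window, and no binding was measured.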
